A study of Mus musculus with 22 samples.

Results

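Levels of 5 ligands, 4 receptors and 1 cytoplasmic inhibitor of the ERBB signalling family were examined in the right ventricle (RV) and left ventricle (LV) of newborn mice after banding of the pulmonary artery. The 10 genes were Nrg1, Nrg4, Hbegf, Btc, Tgfa, Egfr, Erbb2, Erbb3, Erbb4 and Errfi1. Each was found by its symbol in the GENCODE mouse annotation and matched 1 row of the 49670 genes in the RV table and 1 row of the 49671 genes in the LV table. The set was chosen by gene name, with the normalized counts of these nPAB and Sham libraries already known from earlier results, so the adjusted p-values below, computed over all genes tested, describe these genes and are not independent support for a choice of them.

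The mice were of the CD1 strain, and the labels give no other allele and no drug. The 6 banded mice (nPAB, neonatal pulmonary artery banding, set with a 30G needle) and the 5 Sham-operated mice had surgery at postnatal day 1, and their hearts were taken 7 days later. The RV and the LV of each mouse gave separate libraries of bulk RNA, so there were 6 libraries each of RV nPAB and LV nPAB and 5 each of RV Sham and LV Sham, all with the batch label 1. Banding narrows the outlet of the RV, so the LV of the same mouse is a ventricle outside the band.

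Depth was 7109050 to 11334423 reads per library. All 4 load markers, genes known to rise in strained heart muscle, were called higher in the banded RV and 3 of 4 in the LV. Over all genes tested, 11.1% were called higher in the RV and 4.76% in the LV. Acta1, skeletal muscle actin, gave a log2 fold change of 5.86 in the RV and 3.08 in the LV. Nppa, atrial natriuretic peptide, gave 6.09 and 2.96, and Nppb, B-type natriuretic peptide, gave 3.87 and 2.30. Among the lists of cell type markers, the cardiomyocyte list had the highest sum in every library. Its summed normalized count, not corrected for gene length, was 645569 to 939074 over 8 genes. In 9 of 11 mice the RV and LV libraries carried the same sex by Xist, expressed in females, and Ddx3y, on the Y chromosome. In the other two, nPAB mice 6 and 7, they did not. Xist stood at 3040 in the RV and 0.830 in the LV of mouse 6, and at 1.86 in the RV and 3323 in the LV of mouse 7, so results that pair the ventricles of a mouse are also given without these mice.

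The ERBB receptors are tyrosine kinases that pair at the cell surface when a ligand binds. EGFR binds TGF-alpha, betacellulin and HB-EGF, which is also a ligand of ERBB4, while ERBB3 and ERBB4 bind neuregulins. ERBB2 has no known ligand and serves as the partner of the others. In the heart, neuregulin 1 from endothelial and endocardial cells signals to cardiomyocytes through ERBB4 and ERBB2, a pathway needed for trabeculation and known to influence cardiomyocyte growth and division. The ligands are made as membrane proteins and released by metalloproteases, and ERRFI1 (also called MIG6) binds the kinase domain of the receptors and blocks it.

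RefSeq start-site windows (GRCm38.p6, 250 bases before to 50 after a start) matched 7 of the 10 genes, with 8 windows. The 250 bases before the start are shown for the 2 receptors that fell in the RV and for the inhibitor that rose. These 3 had RV groups that did not overlap. So had Hbegf, but no window was found for Hbegf, Nrg1 or Erbb3. Capitals mark TGACGTCA, the cAMP response element, and TATAAA, the TATA box, in Errfi1, and GGAATG, the motif of TEAD factors, in Erbb2. The Erbb4 window held none of the motifs searched.
Erbb4, chr1:69108060-69108309, minus strand: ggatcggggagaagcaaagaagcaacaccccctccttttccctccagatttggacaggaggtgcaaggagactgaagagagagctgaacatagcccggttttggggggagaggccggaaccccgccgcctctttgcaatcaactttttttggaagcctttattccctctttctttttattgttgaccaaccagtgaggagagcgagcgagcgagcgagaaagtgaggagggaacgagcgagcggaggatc
Erbb2, chr11:98412234-98412483, plus strand: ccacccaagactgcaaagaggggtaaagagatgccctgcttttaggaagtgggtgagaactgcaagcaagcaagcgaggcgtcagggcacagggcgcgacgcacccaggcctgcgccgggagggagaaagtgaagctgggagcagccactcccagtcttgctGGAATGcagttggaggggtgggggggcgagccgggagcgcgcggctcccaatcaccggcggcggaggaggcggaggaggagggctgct
Errfi1, chr4:150854820-150855069, plus strand: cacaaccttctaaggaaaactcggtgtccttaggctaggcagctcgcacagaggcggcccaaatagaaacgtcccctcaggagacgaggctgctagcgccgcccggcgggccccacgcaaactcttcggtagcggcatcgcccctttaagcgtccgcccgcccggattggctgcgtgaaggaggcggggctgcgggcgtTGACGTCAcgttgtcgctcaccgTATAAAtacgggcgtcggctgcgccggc

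Motifs were searched on both strands over the full windows. In Errfi1 the cAMP response element began 51 bases before the start and the TATA box 28 bases before it, and the pair did not overlap. Among all windows of 300 bases, 1.79% held the first and 13.6% the second. In Erbb2 the TEAD motif began 88 bases before the start, and 14.7% of windows held it. Another Errfi1 window, of a start further upstream at chr4:150853546-150853845, also held that motif. The AP-1 site TGANTCA, in 7.81% of all windows, the E-box CACGTG, in 7.15%, and the glucocorticoid response element, in 0.00913%, were in no window of these genes. The GC box GGGCGG, in 35.7% of windows, was present in those of Egfr, Tgfa and Errfi1. These matches describe letters only, and no binding was measured.

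Levels of different genes were compared as RPKM, the reads per kilobase of merged exon scaled to the total of the library. In RV Sham the order was Errfi1 (9.87 ± 1.42), Erbb4 (8.18 ± 0.853), Erbb2 (6.21 ± 0.947), Egfr (3.24 ± 0.405), Hbegf (2.02 ± 0.505), Erbb3 (1.87 ± 0.425), Nrg1 (0.767 ± 0.379), Tgfa (0.634 ± 0.285), Btc (0.413 ± 0.159) and Nrg4 (0.122 ± 0.128; all SD, n = 5). The ranges of neighbours did not overlap between Erbb2 and Egfr and between Egfr and Hbegf. All other neighbours in that order overlapped. In RV nPAB, Hbegf ranked next after Errfi1 at 6.40 ± 2.74 (SD, n = 6), above Erbb4 at 3.99 ± 0.744 and Erbb2 at 3.69 ± 0.417, and the ranges of these 3 overlapped from each to the next. In the LV, Erbb4 ranked above Erbb2 in Sham (6.44 ± 0.983 against 5.61 ± 0.501, SD, n = 5) and in nPAB (5.02 ± 0.815 against 3.29 ± 0.650, SD, n = 6), with overlapping ranges in each. Errfi1 ranked highest in all 4 groups.

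**Figure D1:**
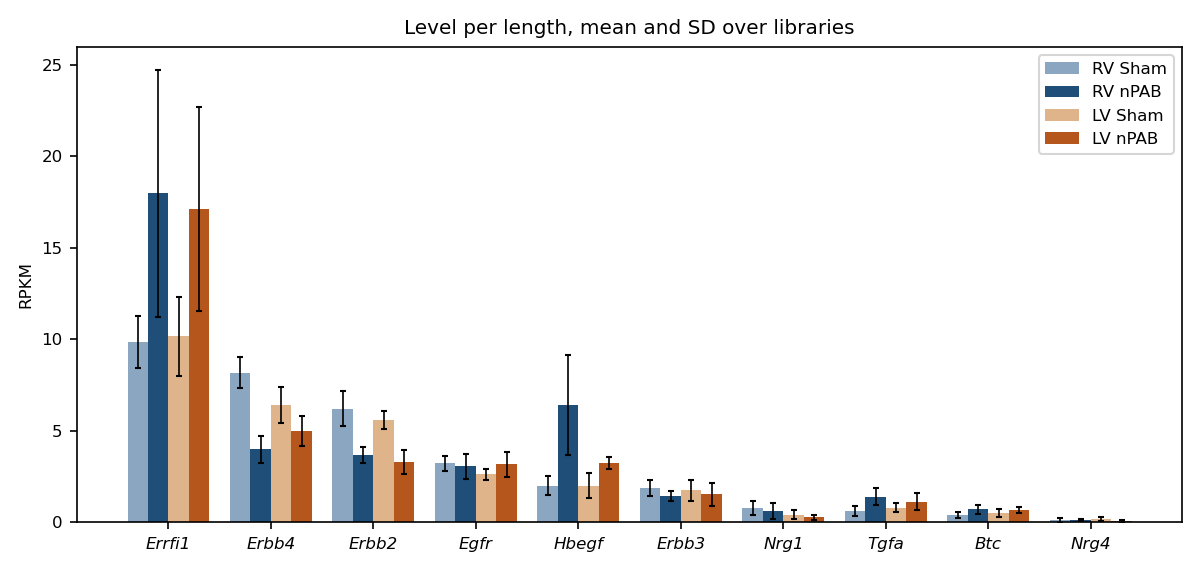
Level per length of the 10 genes (y axis, RPKM, linear) in the 4 groups, as mean (bar) and SD (line) over 5 Sham or 6 nPAB libraries. Erbb4 and Erbb2 are lower in RV nPAB than in RV Sham, while Hbegf rises from 2.02 to 6.40.

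In the banded RV, 3 of the 9 genes tested were called higher (Hbegf, Tgfa, Errfi1) and 2 lower (Erbb4, Erbb2). Of all 13660 genes tested there, 22.0% were called, 11.1% higher and 10.8% lower. In the LV of banded mice, 2 of 9 were called higher (Hbegf, Errfi1) and 1 lower (Erbb2), where 9.31% of 13528 genes were called, 4.76% higher and 4.55% lower. Calls are by limma at an adjusted p under 0.05. The median log2 fold change of the genes tested was -0.01 in the RV and 0.31 in the LV, beside 5.16e-05 and -0.01 over all genes tested. The nPAB and Sham libraries did not overlap for 4 of 9 genes in the RV and 2 of 9 in the LV, beside 12.9% and 6.53% of all genes tested. Nrg4 had a mean under 10 in each ventricle and was left out by the filter on low values. In bulk tissue, fewer cells of a type and less RNA per cell cannot be told apart.

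**Figure D2:**
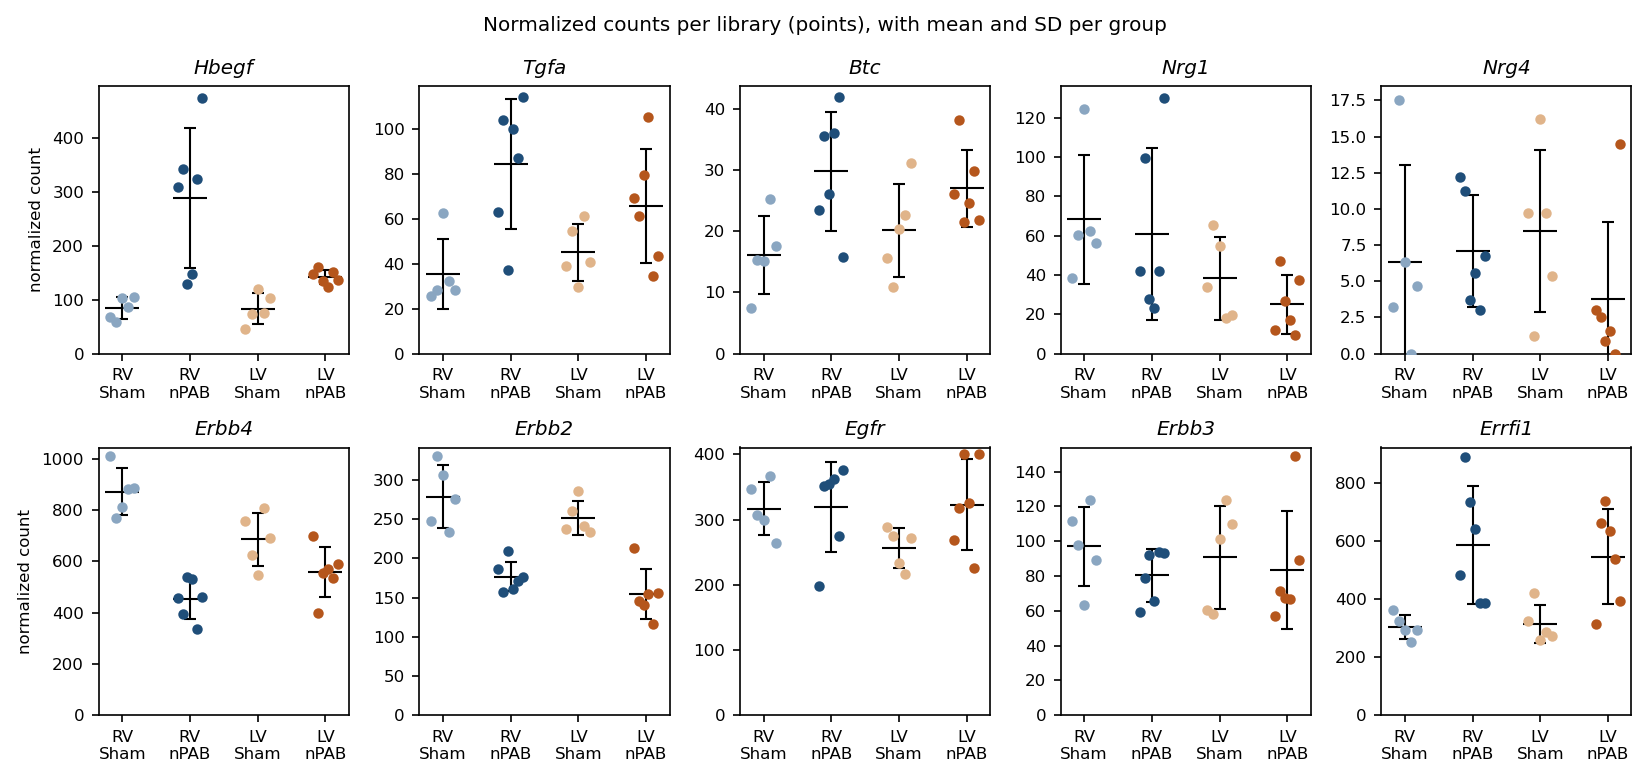
Normalized count (y axis, deposited values) of each gene in each library (points) in the 4 groups, with the mean (dash) and SD (line). All Erbb2 points of nPAB lie below all Sham points in both ventricles, and all Hbegf points of nPAB lie above them.

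**Figure D3:**
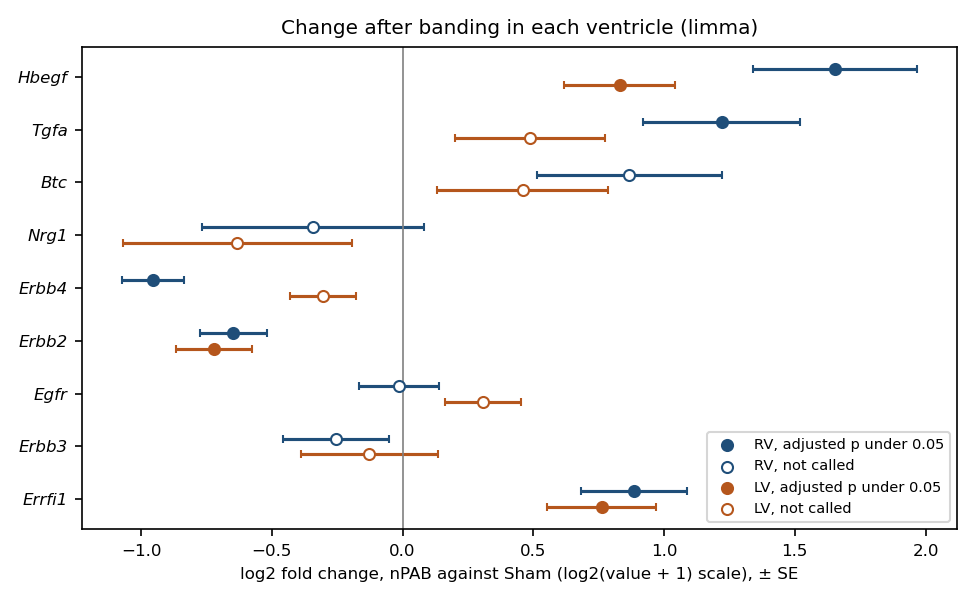
Log2 fold change of nPAB against Sham with its standard error (x axis, log2(value + 1) scale) for the 9 genes tested in the RV (blue) and LV (orange). Filled points have an adjusted p under 0.05; Erbb4 is at -0.96 in the RV and -0.31 in the LV.

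Among the ligands, Hbegf was higher in every nPAB library than in every Sham library of the same ventricle. Hbegf (ENSMUSG00000024486, protein coding, chr18:36504927-36515805 in mm10, minus strand) encodes heparin-binding EGF-like growth factor. In RV Sham its normalized count, the read count divided by the size factor of the library, was 68.0, 58.1, 103, 85.6 and 106 in mice 9 to 13. In RV nPAB it ran from 128 through a median of 316 to 474. The fold change was 1.65 ± 0.31 on the log2 scale (SE; limma adjusted p = 0.00202), and the mean rose from 84.1 ± 21.0 (SD, n = 5) to 288 ± 130 (SD, n = 6). Mice 7 and 8 were lowest, at 128 and 148, and the remaining 4 libraries stood at 309 to 474. In LV Sham the counts were 44.8, 73.7, 120, 75.3 and 103, and in LV nPAB they ran from 123 through 142 to 160. The LV change was 0.83 ± 0.21 (limma adjusted p = 0.0182), and without nPAB mice 6 and 7 it was 0.80 with an adjusted p of 0.0696.

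Tgfa (ENSMUSG00000029999, protein coding, chr6:86195223-86275719, plus strand), a ligand of EGFR, also rose in the RV. Its RV Sham counts were 25.5, 28.5, 62.7, 32.1 and 28.2 in mice 9 to 13. In RV nPAB they ran from 37.2 through 93.5 to 114, and 5 of 6 libraries lay above the highest Sham library. The RV change was 1.22 ± 0.30 (limma adjusted p = 0.00647). In LV Sham the counts were 39.0, 54.4, 29.4, 61.3 and 40.9, and in LV nPAB they ran from 34.6 through 65.4 to 105. The LV groups overlapped, and the change of 0.49 ± 0.29 did not pass the test (limma adjusted p = 0.309). A 118-base exon stretch of Tgfa is shared with the gene model Gm43917, and whether the counting used strand is not given in the sources used here.

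Btc (ENSMUSG00000082361, protein coding, chr5:91357261-91402994, minus strand), betacellulin, was a low-count gene in which no change was called. It had 7.43 to 25.3 in RV Sham and 15.7 to 42.0 in RV nPAB, with 4 of 6 nPAB libraries above the highest Sham library. The RV difference was 0.87 ± 0.35 (limma adjusted p = 0.0879) and reached an adjusted p of 0.0497 without nPAB mouse 11. In the LV it had 10.9 to 31.2 in Sham and 21.6 to 38.2 in nPAB, a difference of 0.46 ± 0.33 (limma adjusted p = 0.413).

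The neuregulins were low and spread widely between libraries. Nrg1 (ENSMUSG00000062991, protein coding, chr8:31814551-32884029, minus strand), the main cardiac neuregulin, had RV Sham counts of 38.2, 60.3, 125, 62.3 and 56.3, and RV nPAB counts from 23.1 through 41.9 to 130. The RV difference was -0.34 ± 0.42 (limma adjusted p = 0.621), and with a single mouse left out it ran from -0.10 without Sham mouse 11 to -0.62 without nPAB mouse 11. In LV Sham it had 34.1, 65.2, 54.8, 18.3 and 19.4, and in LV nPAB 9.61 through 21.8 to 47.3, a difference of -0.63 ± 0.44 (limma adjusted p = 0.399). Both pairs of groups overlapped. Nrg1 shares 482 exon bases with Gm26578. Nrg4 (ENSMUSG00000032311, protein coding, chr9:55220222-55326844, minus strand) had means of 3.74 to 8.45 in the 4 groups and 0 reads in 2 libraries, RV Sham mouse 12 and LV nPAB mouse 10. In the fit without a filter its difference was 0.54 in the RV (limma adjusted p = 0.666) and -1.29 in the LV (limma adjusted p = 0.394). A count of 0 there allows up to 3 reads, which is 0.333 and 0.323 CPM, for counting error only. Nrg4 also shares 545 exon bases with Fbxo22 and Gm15625.

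Among the receptors, Erbb4 and Erbb2 fell in the RV. Erbb4 (ENSMUSG00000062209, protein coding, chr1:68032186-69108059, minus strand), the neuregulin receptor of cardiomyocytes, had RV Sham counts of 1011, 769.5, 813, 881 and 887 in mice 9 to 13. In RV nPAB the counts ran from 337 through 459 to 539, so the groups were far apart. The mean fell from 872 ± 91.7 (SD, n = 5) to 453 ± 78.5 (SD, n = 6), a log2 fold change of -0.96 ± 0.12 (limma adjusted p = 1.96e-05). In LV Sham the counts were 758, 626, 548, 807 and 692, and in LV nPAB they ran from 398 through 563 to 698. The LV groups overlapped, and the change of -0.31 ± 0.13 did not pass the test (limma adjusted p = 0.140; unadjusted p = 0.0265).

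Erbb2 (ENSMUSG00000062312, protein coding, chr11:98412470-98437716, plus strand), the partner receptor, fell in both ventricles. Its RV Sham counts were 248, 331, 306, 233 and 276, and its RV nPAB counts ran from 158 through 174 to 209. Every nPAB library lay below every Sham library, with means of 279 ± 40.4 and 177 ± 19.0 (SD), and the change was -0.65 ± 0.13 (limma adjusted p = 0.00134). In LV Sham the counts were 238, 261, 286, 241 and 234, and in LV nPAB they ran from 116 through 150.2 to 213. Again no libraries overlapped, with means of 252 ± 21.9 and 154 ± 32.1 (SD), and the change was -0.72 ± 0.15 (limma adjusted p = 0.00451). Erbb2 shares only 9 exon bases with Mien1.

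Egfr and Erbb3 were not called. Egfr (ENSMUSG00000020122, protein coding, chr11:16752203-16918158, plus strand), the receptor of TGF-alpha and HB-EGF, had 264 to 367 in RV Sham and 198 to 376 in RV nPAB, a difference of -0.01 ± 0.15 (limma adjusted p = 0.962). Its sign in the RV changed under several alternatives. In the LV, 4 of 6 nPAB libraries lay above the highest Sham library (216 to 288 against 225 to 400.4), and the difference was 0.31 ± 0.15 (limma adjusted p = 0.203). Erbb3 (ENSMUSG00000018166, protein coding, chr10:128567523-128589652, minus strand), a neuregulin receptor whose kinase is weak, had 63.5 to 124 in RV Sham and 59.1 to 94.0 in RV nPAB, a difference of -0.25 ± 0.20 (limma adjusted p = 0.410). Its LV difference was -0.13 ± 0.26 (limma adjusted p = 0.813). Schwann and neural crest markers, among which Erbb3 is also known to be expressed, had a summed level of 91.6 to 151 in RV Sham and 66.2 to 121 in RV nPAB over 7 genes, and their part in the result was not tested.

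Errfi1 (ENSMUSG00000028967, protein coding, chr4:150853919-150868892, plus strand), the inhibitor of the receptors, rose in both ventricles. Its RV Sham counts were 363, 325, 294, 251 and 292, and its RV nPAB counts ran from 386 through 564 to 892. No RV libraries overlapped, the means were 305 ± 41.8 and 588 ± 204 (SD), and the change was 0.88 ± 0.20 (limma adjusted p = 0.00631). In LV Sham the counts were 325, 422, 259.8, 288 and 273, and in LV nPAB they ran from 315 through 587 to 739, with 4 of 6 libraries above the highest Sham library. The LV change was 0.76 ± 0.21 (limma adjusted p = 0.0348). The LV call did not hold without nPAB mice 6 and 7, where the change was 0.55 with an adjusted p of 0.116, it did not hold without trend and robust moderation (adjusted p = 0.0764), and it was lost in 8 of the 11 fits that left out a single mouse. The single mice were Sham 9, 11, 12 and 13 and nPAB 6, 7, 8 and 10, with adjusted p-values of 0.0617 to 0.0890.

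Erbb4 differed between the ventricles of a mouse in opposite directions in the 2 treatments. On a scale common to all 22 libraries, it was higher in the RV than in the LV in 5 of 5 Sham mice, by 0.09 to 0.52 on the log2 scale. It was higher in the LV in 6 of 6 nPAB mice, where the RV minus LV difference ran from -0.70 to -0.07. Without nPAB mice 6 and 7 it was higher in the LV in 4 of 4, from -0.70 to -0.15, and with the ventricles of these 2 mice exchanged, as their sex markers would pair them, in 5 of 6, with the remaining pair at 0.40. The RV effect minus the LV effect was -0.65 ± 0.13 (limma adjusted p = 0.00831, in a fit where 1.11% of 13364 genes were called). This call depends on how the spread was modelled. In the first fit the variance trend followed limma's default, the mean of the differences, and there the adjusted p was 0.142. The trend was then set on the mean level, after those values had been seen, because the first fit recovered few changes in simulated data. The simulated libraries held no effect shared by the ventricles of a mouse. They therefore cannot decide which trend suits these paired differences. The adjusted p was 0.162 without trend and robust moderation, 0.290 when same-numbered libraries were not paired, 0.0635 with the ventricles of nPAB mice 6 and 7 exchanged, 2.27e-04 without those mice, 0.00774 by edgeR and 6.28e-04 by DESeq2.

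**Figure D4:**
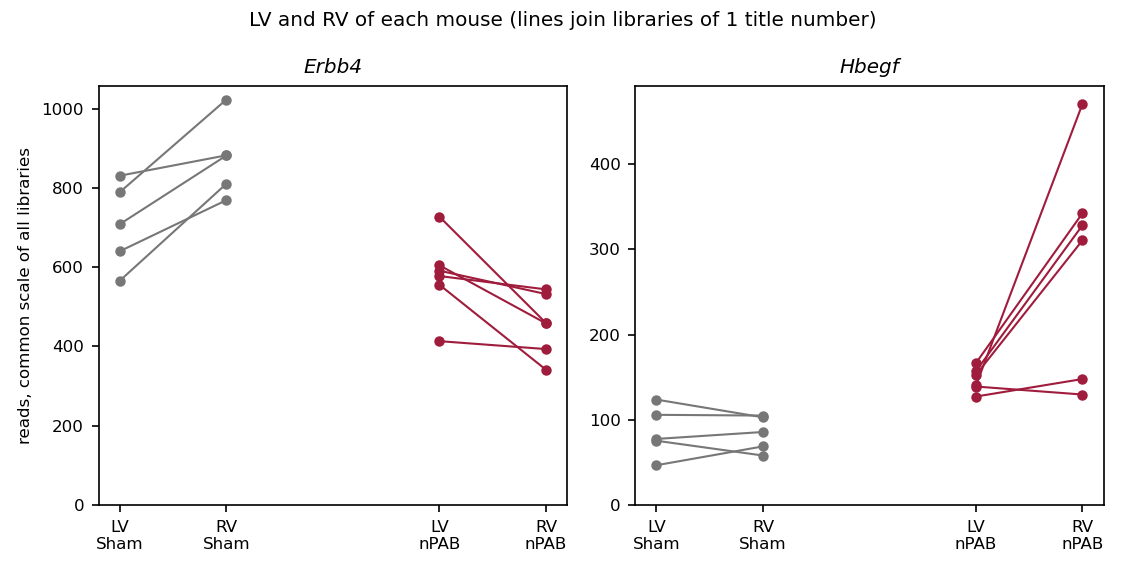
Erbb4 and Hbegf in the LV and RV of each mouse (y axis, reads on a scale common to all libraries), with a line joining the libraries of 1 mouse number, for 5 Sham (grey) and 6 nPAB mice (red). Erbb4 lines rise from LV to RV in 5 of 5 Sham mice and fall in 6 of 6 nPAB mice as numbered, or in 5 of 6 with the ventricles of nPAB mice 6 and 7, whose sex markers disagree, exchanged.

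Within Sham mice alone, Erbb4 was 0.31 ± 0.08 higher in the RV than in the LV (limma adjusted p = 0.0206, in a fit where 2.00% of 13364 genes were called). The same choice of trend, made after the values were seen, decides this call too. The adjusted p was 0.708 with the default trend, 0.374 without trend and robust moderation, 0.393 without pairing, 0.111 without the filter on low values, 0.0149 by edgeR and 0.0118 by DESeq2, and it was 0.0646 to 0.128 in 4 of the 5 fits that left out a Sham mouse (9, 10, 11 or 13). Nrg1 was higher in the RV in 4 of 5 Sham and 6 of 6 nPAB mice as numbered, in 4 of 4 nPAB mice without mice 6 and 7, and in 5 of 6 with these exchanged. Its Sham difference of 0.84 ± 0.29 did not pass the test (limma adjusted p = 0.176). Hbegf was higher in the RV in 2 of 5 Sham mice and in 5 of 6 nPAB mice, also 5 of 6 with mice 6 and 7 exchanged and 4 of 4 without them. Its RV effect minus LV effect was 0.82 ± 0.27 and did not pass the test (limma adjusted p = 0.167). Without nPAB mouse 7 it was 1.01 (limma adjusted p = 0.0234), and without mice 6 and 7 it was 1.00 (limma adjusted p = 0.0332). Both of these fits used the trend on the mean level and were not repeated with the default. The Hbegf difference was called in 2 of 22 alternatives.

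Other genes of the pathway were counted in fixed lists. Of the 6 other ligands, only Egf was high enough to test, and it was not called (RV log2 fold change -0.73, LV -0.71). Of 11 sheddases and processing genes, 2 were higher and 1 lower in the RV, and 2 higher in the LV (27.3% and 18.2% called). The share called over all genes tested was 22.0% in the RV and 9.31% in the LV. Adam9, a membrane metalloprotease, gave 1.26 ± 0.18 in the RV (limma adjusted p = 2.71e-04) and 0.68 ± 0.14 in the LV (limma adjusted p = 0.00781). Cd9, a tetraspanin that binds the HB-EGF precursor, gave 0.41 in the RV and -0.03 in the LV, where it was not called. Bace1, a protease that cuts neuregulin 1, gave -0.32 in the RV and -0.29 in the LV, where it was not called. Furin, a proprotein convertase, gave 0.41 in the LV and 0.27 in the RV, where it was not called. The list's median was 0.13 in the RV and -0.03 in the LV.

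Listed as negative regulators of the receptors, apart from Errfi1, were 16 genes. None was called higher, 3 were lower in the RV and 2 in the LV, with list medians of -0.03 and -0.03. The share called was 18.75% in the RV and 12.5% in the LV, beside 22.0% and 9.31% of all genes tested. Cblb, a ubiquitin ligase of receptor kinases, gave -0.54 in the RV and -0.50 in the LV. Socs4, a suppressor that acts on EGFR, gave -0.44 and -0.30. Lrig2, a membrane protein of the LRIG family, gave -0.46 in the RV and -0.29 in the LV, where it was not called. Of 31 adapters and effectors, 5 were higher and 4 lower in the RV, and 2 higher and 2 lower in the LV (medians -0.07 and 0.02). The share called was 29.0% and 12.9%. Map2k1, the kinase above ERK, gave 0.69 in the RV and 0.30 in the LV, where it was not called. Stat3, a transcription factor, gave 0.59 in the RV and 0.52 in the LV. Gab1, a docking protein of receptor kinases, gave -0.57 and -0.46. Pik3r3, a regulatory subunit of PI3 kinase, gave 0.75 in the LV and 0.42 in the RV, where it was not called.

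Of 17 ERK-induced genes tested in the RV, 6 were higher (35.3%) and none lower, with a median of 0.35. Over all genes tested there, 11.1% were higher and 10.8% lower. In the LV 1 of 16 was higher and 1 lower, with a median of 0.17, beside 4.76% higher and 4.55% lower over all genes tested. Dusp6, a phosphatase of ERK, gave 0.58 in the RV, and the immediate early genes Ier2 and Ier3 gave 0.94 and 0.66. In the LV, Ier3 gave 0.48, and Spred1, an inhibitor of the RAS pathway, gave -0.31. Errfi1 is also known as a glucocorticoid-induced gene. Of 12 other such genes, 9 were higher and 1 lower in the RV, and 10 higher and 1 lower in the LV (medians 1.31 and 1.23). The share called was 83.3% and 91.7%, beside 22.0% and 9.31% of all genes tested. Sgk1, a kinase, gave 1.62 in the RV and 1.39 in the LV, and Per1, a clock gene, gave 1.96 and 2.14. Cdkn1a, a cell cycle inhibitor, gave 1.09 and 0.96, and Klf9, a transcription factor, gave 0.53 and 0.71. The part of these genes in the Errfi1 result was not tested.

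For each gene called, the 3 genes with the highest Pearson r over the 22 libraries were listed, among 9826 genes searched. Treatment and ventricle are shared by the points, so r on deviations from the 4 group means is given after it. Hbegf was most like Kif5b (0.951, then 0.869), Cryab (0.943, 0.815) and Csrp3 (0.927, 0.765). Tgfa was most like Fam120a (0.852, 0.711), Ildr2 and Tpm2. Erbb4 was most like Mpped2 (0.924, 0.671), Rock1 and Nhsl1. Among those of Erbb2 were Hdac9 (0.929, 0.669) and Fgf9. Errfi1 was most like Cdkn1a (0.919, 0.819), Litaf and Cald1.

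Markers of cell types were read beside these results. Of 8 cardiomyocyte markers, 1 was higher and 3 lower in the RV, and 1 higher in the LV, and their summed level ran from 678506 to 775076 in RV Sham and from 645569 to 755398 in RV nPAB. Of 8 endothelial markers, 1 was lower in each ventricle. None of 4 endocardial markers was called in the RV and 1 was higher in the LV. Of 8 fibroblast markers, 2 were lower in the RV and none was called in the LV. Of 6 mural markers, 1 was higher and 1 lower in the RV and 1 lower in the LV. None of 7 macrophage, 5 epicardial and mesothelial, 4 atrial or 3 proliferation markers was called in the RV, nor any of those tested in the LV. Among Schwann markers tested, 1 was higher and 1 lower in the RV, and among erythroid markers 1 was higher. Summed epicardial markers stood at 165 to 338 in RV Sham and 317 to 596 in RV nPAB, and summed atrial markers at 161 to 2474 and 737 to 9777. The part of these markers in the results was not tested. Of 5 adipocyte markers, 4 had a mean under 10 in every group, and Cidec was at 0 in every library.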

How the data were processed

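RNA was measured in 22 bulk libraries of RV and LV. Library preparation used the Revelo RNA-Seq High Sensitivity kit after Qiagen RNeasy Plus isolation, per the labels' protocols, and cutadapt, featureCounts, DESeq2 and the mm10 build are named in the submitters' processing notes. For the aligner, all versions and the strand setting, nothing is stated in these sources. For each ventricle the authors deposited a table of a signal that is never negative: gene counts divided by a DESeq2 size factor per library, per the labels. Whole reads were recovered from these values (100% were whole multiples within 0.001), which gave depths of 7109050 to 11334423 reads; counting error is therefore large for genes with few reads, such as Btc and Nrg4. No column was left out.

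The ventricles' tables were tested apart, or as RV minus LV per mouse, with limma 3.58.1 in R 4.3.3 on log2(value + 1), for genes with a mean of at least 10, with a variance trend and robust moderation, two-sided, and Benjamini-Hochberg adjustment at 0.05 over all genes tested. A fold change on this scale understates the change of genes with few reads. The RV and LV of Sham mice were compared on recovered reads brought to 1 scale by TMM. For differences within a mouse the variance trend was set on the mean level, not limma's default, after results under the default were seen. The reason was a test on simulated data that recovered few changes under the default. Those data held no effect shared by the ventricles of a mouse, so they cannot decide which trend suits paired differences. The calls that this choice turned on are named in the text. edgeR 4.0.16 and DESeq2 1.42.0 on whole reads, other pseudocounts and filters, leaving out mice, TMM scaling, sex as a term and a block on mouse number were alternatives. All 10 genes are named, the 3 most alike genes by Pearson r (of which 1 is not reported here), and at most the 3 called genes of each other list with the smallest p in a ventricle. The genes and lists were chosen with earlier results of these data known. The titles number the mice of a group separately, and p-values measure the spread between these 11 mice only. RV and LV libraries of the same number were paired as the same mouse, from the titles: their deviations from the group means correlated at 0.132 to 0.383, except 0.0548 in nPAB mouse 7. With mice 6 and 7 exchanged, the LV of 7 and the RV of 6 correlated at 0.180 and the LV of 6 and the RV of 7 at -0.0433. Within a group, no library was a copy of another: the closest pair differed by more than counting noise (chi-square 7.47 times its degrees of freedom). Libraries of different groups were not compared in this way. Lengths are merged exons of GENCODE vM21, and start-site windows are from RefSeq.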

Additional observations from a re-analysis of the deposited data

Results flagged for a closer look

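Erbb4 in the RV effect minus the LV effect, at -0.649974 on the log2 scale, differed between the ventricles by the test of the difference itself (limma adjusted p = 0.00831), a call that depends on the variance model as given in the report. It is called in each of the 11 fits that left out a single mouse, with adjusted p-values of 0.00183 to 0.0367, and is not called with the default trend, without trend and robust moderation, without pairing or with mice 6 and 7 exchanged between the ventricles.

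Single libraries stood far from the rest of their group in 4 of the 40 sets of a gene and a group that were checked. The rule was a gap to the nearest library past Dixon's critical value. Its nominal rate is about 1 in 20 groups by chance for normally distributed values. The values checked were normalized counts without a log, so the rate in these data is not known. Nrg1 in RV Sham mouse 11 was at 124.629 and Tgfa in RV Sham mouse 11 at 62.7114, both the highest of their group. Nrg4 in LV nPAB mouse 11 was at 14.5107 and Erbb3 in LV nPAB mouse 10 at 148.97.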

How the results depend on the processing

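Of 10 results called for these genes, 6 were called under every alternative, and none changed direction. Those 6 were Hbegf, Tgfa, Erbb2, Erbb4 and Errfi1 in the RV and Erbb2 in the LV. Of 26 results not called, 24 were called under no alternative. The exceptions were Btc in the RV without nPAB mouse 11 and the ventricle difference of Hbegf without nPAB mouse 7 or without mice 6 and 7. The variance trend on the mean level was chosen after seeing the data, and with the default trend 1 gene was called for the RV effect minus the LV effect, against 148, and 0 for RV minus LV in Sham, against 267. The count was 1 and 0 without trend and robust moderation. At an unadjusted p under 0.05, the default trend gave 1474 and 757 genes, and the fit without trend and robust moderation gave 1471 and 1235. The RV effect minus the LV effect gave 251 calls by DESeq2, 501 without nPAB mice 6 and 7, 63 with these exchanged and 5 without a replicate block, and 80 to 393 with a single mouse left out. RV minus LV in Sham gave 131 without a filter, 29 without a replicate block and 155 to 236 with a single mouse left out. In the LV, 739 genes were called without trend and robust moderation and 668 without nPAB mice 6 and 7, against 1260. The replicate block on mouse numbers 10 and 11, shared by nPAB and Sham, gave 2796 calls in the RV and 1201 in the LV and changed no call of these genes; libraries of nPAB and Sham with the same number correlated at -0.0771 to -0.0290, so the numbers do not pair them. Several genes that were not called changed sign. Egfr in the RV was at 0.0012 by edgeR and 0.0071 by DESeq2 and at -0.077 to 0.12 with a single mouse left out. With a single mouse left out, Erbb3 ran from -0.31 to 0.0013 in the LV, from -0.33 to 0.058 for the ventricle difference and from -0.10 to 0.29 in Sham, Hbegf from -0.13 to 0.10 and Errfi1 from -0.12 to 0.014 in Sham. The cause of these shifts was not tested. Nrg4, with a mean under 10, was tested only in the fits without a filter and was not called there. Few reads limit the precision of Nrg4 and Btc.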
